A study of Mus musculus with 60 samples.

Results

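The 10 genes described here are Reg3b, Reg3g, Reg1, Lgals2, Lgals4, Lcn2, Pigr, Tff2, Tff3 and Muc1, a group of secreted or surface proteins that are best known from the gut and other mucosal epithelia. They were taken by their Ensembl identifiers from the gene count tables of mouse liver organoids, where they were 10 of 23440 genes in the table of culture methods, 10 of 23068 in the table of passages and 10 of 28773 in the table of single organoids. Reg3b and Lgals2 were chosen because they were higher at passage 11 than at passage 4, so the contrast of passages selected the members. Its values are given as a description without p-values, and genes called there do not count as a test of the members. All 10 genes passed the filter on low counts in each table, Reg1 with no count in 2 of the 3 passage 4 libraries.

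The study grew intrahepatic cholangiocyte organoids, hollow spheres of bile duct cells, from livers of male C57BL/6N mice that were 3 to 4 months old according to the labels. All cultures were started in Matrigel domes with HepatiCult medium. To compare culture methods, pools of 2, 4 and 3 mice were each kept in domes or moved to a shaken suspension with 10% Matrigel, giving 3 dome and 3 suspension cultures. To compare organoids with each other, 42 single organoids were picked from suspension cultures of Sets 1 to 4 and 35 were kept by the study. Set 1 gave 8 organoids and was at passage 11, Sets 2 and 3 gave 10 and 5 and were at passage 3, and Set 4 gave 12 at passage 4. Each Set came from 1 mouse, so Set, mouse and passage cannot be told apart among the single organoids. To follow passaging, Sets 1, 3 and 4 were sequenced in bulk early, at passage 4, and late, at passage 11, with 2 technical replicates of each culture. The labels give no treatment and no genetic change, and which culture method the bulk passages used is not stated.

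Reg3b, Reg3g and Reg1 belong to the regenerating family of secreted C-type lectins. Reg3 proteins bind bacteria at the intestinal surface, where interleukin-22 and STAT3 drive their genes, and in the pancreas Reg3b and Reg1 are known as genes of injury and acinar stress. Galectins bind galactose-containing glycans, and galectin-4, encoded by Lgals4, is a lectin of enterocytes of the digestive tract. Lipocalin-2, encoded by Lcn2, withholds iron from bacteria by binding their siderophores. The polymeric immunoglobulin receptor, encoded by Pigr, carries immunoglobulin A across epithelia, in bile ducts as well as in the gut. Trefoil factors protect mucosal surfaces and are secreted together with mucus, Tff2 mainly by the stomach and Tff3 by goblet cells, and Muc1 encodes a membrane mucin of many ducts.

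Values are counts scaled to a deposited total of 1e6 (CPM), and fold changes are on the log2 scale of the edgeR fit, which rescales the totals by TMM. The 6 libraries of the culture table held 1776490 to 14761853 counts, the 6 cultures at passages 4 and 11 held 1486347 to 5532630 after their technical runs were summed, and the 35 single organoids 1059002 to 11175868. The organoids carried 11 of 12 biliary marker genes in every group, with summed levels of 3356 to 8300 CPM and Sctr at 0. Of these 11, 5 were higher and 1 was lower in domes than in suspension, beside 29.8% of all genes called in either direction. Krt19 was at 3434 CPM in domes against 1173 CPM in suspension on average, and Spp1 at 876 against 3338 CPM. The part of these markers in the values of the 10 genes was not tested. B and plasma cell, T and innate lymphoid cell, endothelial and mesenchymal marker lists each summed to 2.62 CPM or less in every library. Il22 and Il17a, which encode ligands upstream of Reg3 genes in the gut, had no count in any of the 47 libraries, which allows up to 0.0173 CPM over all of them. Of 13 acinar cell markers, Prss1, Cpa1, Cela2a, Cela3b and Ptf1a were at 0 in every group, while Cela1 and Bhlha15 were detected, with Cela1 at 5.41 ± 0.90 CPM in suspension and 16.5 ± 6.39 CPM in domes (SD, n = 3 each). In bulk cultures, fewer cells of a type and less RNA per cell cannot be told apart.

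The genes lie on 7 chromosomes, and 5 of them sit in clusters (GRCm38, GENCODE M21). Reg3b (chr6:78370657-78373466, plus strand), Reg1 (chr6:78422711-78428667, plus strand) and Reg3g (chr6:78466269-78468872, minus strand) follow each other with gaps of 49244 and 37601 bases. Tff3 (chr17:31125306-31129646, minus strand) and Tff2 (chr17:31141049-31144282, minus strand) are 11402 bases apart. Lgals2 (chr15:78850860-78855529, minus strand) and Lgals4 (chr7:28833854-28841708, plus strand) are on different chromosomes. The others are Lcn2 (chr2:32384633-32388252, minus strand), Pigr (chr1:130826684-130852249, plus strand) and Muc1 (chr3:89229057-89233381, plus strand).

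Promoter sequence from RefSeq (GRCm38.p6) matched 8 of the 10 genes by symbol, and Tff2 and Tff3 had no entry. The 250 bases before the RefSeq start are shown for the Reg genes and both galectins, because the Reg genes moved together and so did the galectins. The windows are Reg3b chr6:78370635-78370884, Reg3g chr6:78468875-78469124, Reg1 chr6:78425733-78425982, Lgals2 chr15:78855530-78855779 and Lgals4 chr7:28833544-28833793, each read 5′ to 3′ on the strand of its gene. Capitals mark matches on either strand to the motifs TTCNNNGAA for STAT factors, TTGCNNAA for C/EBP factors, TATAAA for the core promoter box of that name, the intestinal homeobox motif TTTATGG for CDX, and the NF-kB consensus. None of the marked matches overlapped another, and the motifs were picked with these windows in view.
Reg3b: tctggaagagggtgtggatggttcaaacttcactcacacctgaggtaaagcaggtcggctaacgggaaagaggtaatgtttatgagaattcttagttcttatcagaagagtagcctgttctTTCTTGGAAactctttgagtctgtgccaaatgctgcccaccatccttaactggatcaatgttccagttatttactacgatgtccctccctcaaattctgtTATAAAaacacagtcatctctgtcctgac
Reg3g: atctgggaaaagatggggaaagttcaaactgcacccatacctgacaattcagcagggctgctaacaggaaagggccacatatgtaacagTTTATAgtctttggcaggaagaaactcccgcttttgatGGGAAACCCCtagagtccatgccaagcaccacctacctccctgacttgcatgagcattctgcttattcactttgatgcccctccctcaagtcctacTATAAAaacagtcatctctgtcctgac
Reg1: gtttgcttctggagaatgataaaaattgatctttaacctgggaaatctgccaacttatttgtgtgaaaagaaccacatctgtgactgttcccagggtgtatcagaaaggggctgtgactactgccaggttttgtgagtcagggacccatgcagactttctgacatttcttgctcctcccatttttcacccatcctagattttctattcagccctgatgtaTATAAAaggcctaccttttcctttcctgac
Lgals2: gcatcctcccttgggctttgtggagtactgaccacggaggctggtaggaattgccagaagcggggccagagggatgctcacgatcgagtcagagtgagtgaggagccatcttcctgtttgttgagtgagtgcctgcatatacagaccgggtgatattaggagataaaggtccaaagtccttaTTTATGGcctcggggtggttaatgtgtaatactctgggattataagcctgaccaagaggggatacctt
Lgals4: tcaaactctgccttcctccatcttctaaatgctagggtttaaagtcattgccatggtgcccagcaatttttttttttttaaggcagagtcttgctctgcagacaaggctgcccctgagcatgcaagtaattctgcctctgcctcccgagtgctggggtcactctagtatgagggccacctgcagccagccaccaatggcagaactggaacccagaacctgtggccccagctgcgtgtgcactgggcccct
All 3 Reg windows held TATAAA on the gene's strand, starting 29 bases before the start in Reg3b, 27 in Reg3g and 30 in Reg1. Such a match 25 to 35 bases before the start was present in 1.75% of the 32851 promoter windows in the table, and of the other 5 members with a window only Muc1 had it. Reg3b had a STAT match, TTCTTGGAA, at bases 129 to 121 before the start, and 7.02% of all windows held one. Reg3g held an NF-kB match, GGGAAACCCC, at bases 123 to 114, and 7.25% of all windows held one. Lgals2 had a CDX match, TTTATGG, at bases 68 to 62 (2.43% of all windows held one), and none of the motifs was in the Lgals4 window. Lcn2 carried a C/EBP match (9.56% of all windows) and a CDX match. A match describes letters and not a bound site.
The Reg3b and Reg3g windows were 68.9% identical, with a shared run of 20 bases, against 54.3% for Reg3b and Reg1 and 48.0% for Lgals2 and Lgals4. In the last 300 bases of their transcripts, Reg3b and Reg3g were 59.5% identical with no shared run over 17 bases. Over the whole transcripts their longest shared run was 35 bases, and reads that lie inside it could not be told apart between these genes. For Lgals2 and Lgals4 the longest shared run was 11 bases.

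The values named in the choice of Reg3b and Lgals2 were those of passage 11, and the values of the culture methods were known as well when the 10 genes were put together. Of the 10 genes, 7 were higher in domes than in suspension (edgeR, adjusted p under 0.05) and none was lower, beside 29.8% of all 12699 tested genes called in either direction. The 7 were Reg3b, Reg3g, Lgals2, Lgals4, Pigr, Tff2 and Tff3, whereas Reg1, Lcn2 and Muc1 did not pass. In limma-voom 4 of the 10 genes passed and in DESeq2 5. The median log2 fold change of the 10 genes was 2.42, against -0.04 for all tested genes. Since the values were known beforehand, the count and the median describe these genes and do not test them as a group. Domes and suspension did not overlap for Lgals4, Pigr and Tff3, and they overlapped for the other 7 genes. The share of all tested genes without overlap was not counted. Mitochondrial transcripts made up 1.64% to 2.02% of counts in domes and 3.72% to 4.02% in suspension, and their part in these differences was not tested.

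**Figure D1:**
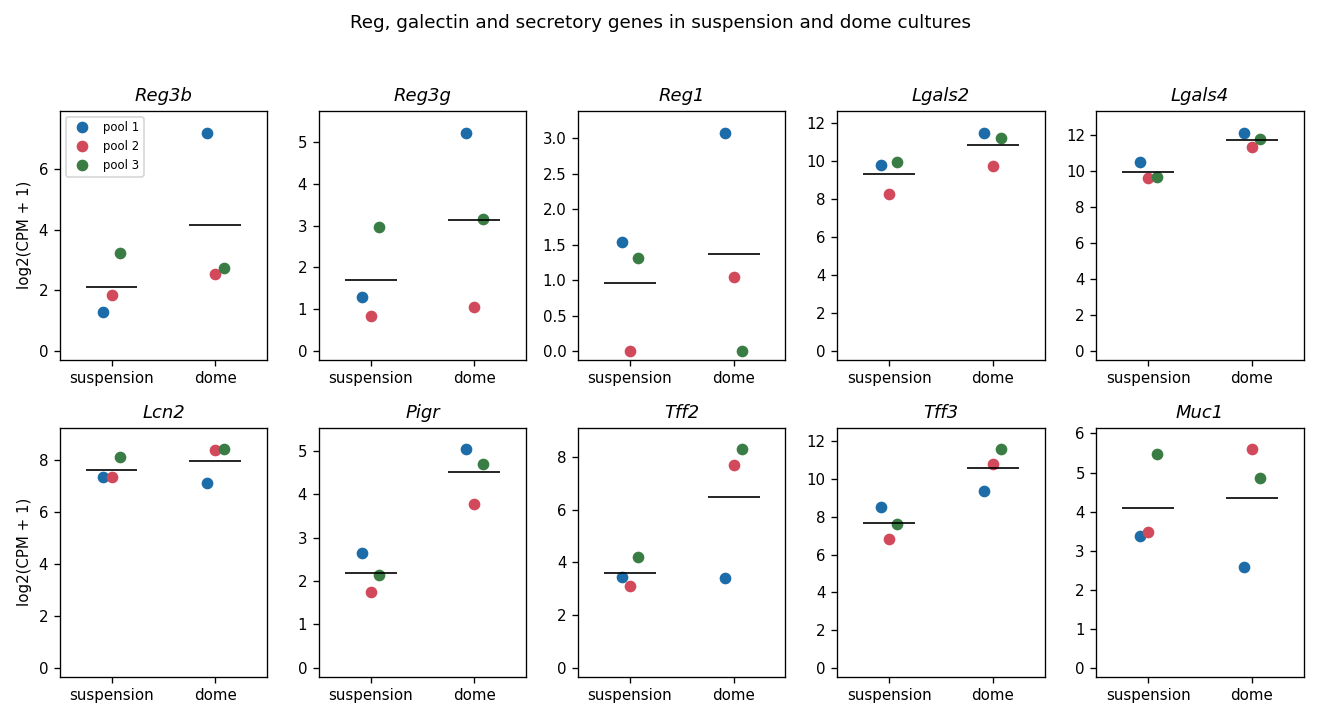
Levels of the 10 genes in 3 suspension and 3 dome cultures, 1 panel per gene, on a log2(CPM + 1) axis. Points are libraries coloured by pool and bars are means of the plotted values. Lgals4, Pigr and Tff3 are higher in all 3 domes than in any suspension culture, and the Reg genes are high in the dome of pool 1 alone.

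At passage 11 compared with passage 4, 5 of the 10 genes were called higher and 2 lower, where 20.3% of 13738 tested genes were called. This count is printed as a description, since the contrast chose the members, and it cannot be weighed against the share of all genes. Those higher were Reg3b, Reg1, Lgals2, Lgals4 and Tff3, and those lower were Lcn2 and Muc1. Reg3g, Pigr and Tff2 did not pass. Single cultures moved the differences. Without Set 3 at passage 11 they were 2.11 for Reg3b, 1.89 for Reg1 and -2.15 for Pigr, and without Set 1 at passage 11 they were 0.93 for Tff3 and 2.83 for Reg3g, which ranged from -0.46 to 4.08 over all alternatives. Within each of the 3 mice, Reg3b, Reg1, Lgals2, Lgals4 and Tff3 were higher at passage 11, and Lcn2, Muc1 and Pigr were lower. For Reg1 in Set 1 this rested on 4 counts at passage 11 against 0 at passage 4. Mitochondrial transcripts made up 1.99% to 2.63% of counts at passage 4 and 0.90% to 1.71% at passage 11, and their part was not tested.

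**Figure D2:**
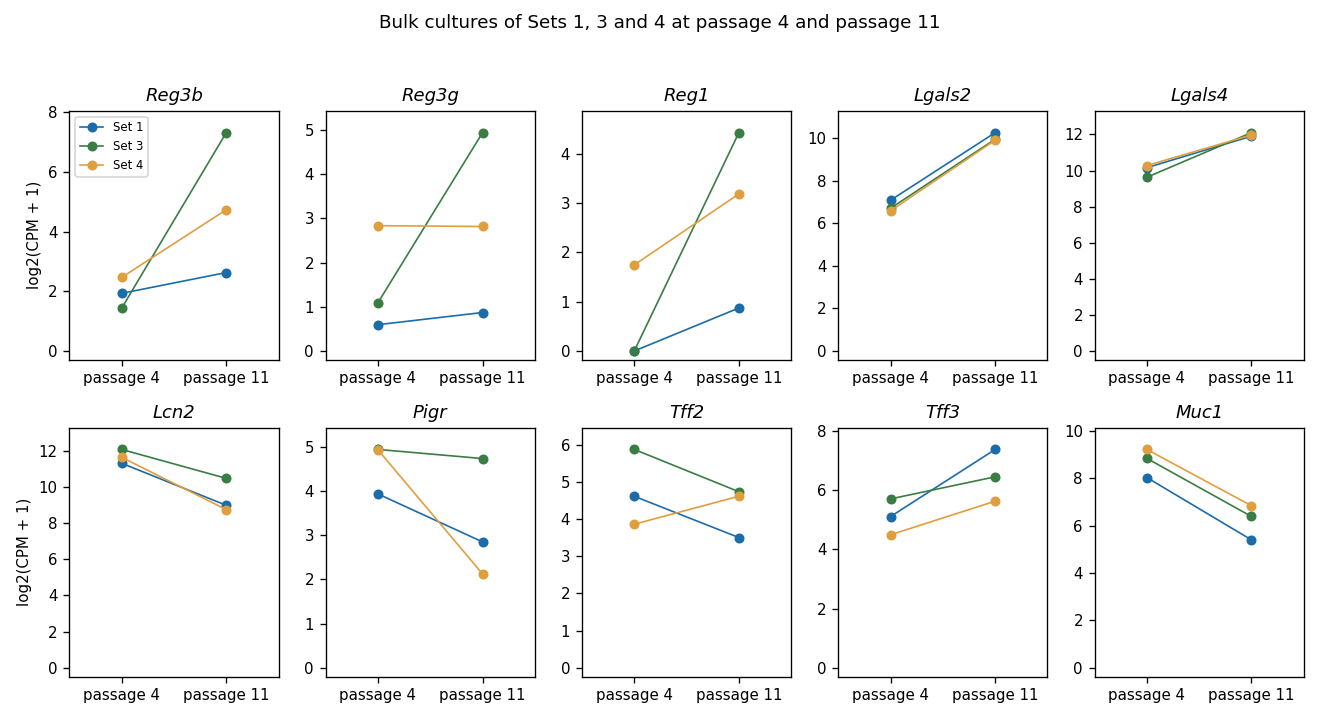
Levels of the 10 genes in the bulk cultures at passage 4 (left) and passage 11 (right), for Sets 1, 3 and 4, on a log2(CPM + 1) axis. Each line joins the cultures of 1 Set. Lgals2 runs in parallel in the 3 Sets, from 95.4 to 135 CPM up to 963 to 1230 CPM, while the ratio of Reg3b ranges from 1.84 to 93.1.

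The single organoids of Set 1, at passage 11, were compared with those of the 3 Sets at passage 3 or 4, and these comparisons share the 8 organoids of Set 1. No test is given in its comparisons for Reg3b and Lgals2, which were chosen for passage 11. The other 8 were put together with earlier results of these data known, so their counts do not test them as a group. Organoids of a Set came from 1 mouse, and the p-values measure the spread between organoids of 1 mouse. Of the other 8 genes, 5 passed against Set 2, with 3 higher and 2 lower in Set 1 (14.3% of 13927 genes were called). The same counts of 3 higher and 2 lower were found against Set 3 (9.43% of genes called) and against Set 4 (20% of genes called). Lgals4, Tff2 and Tff3 were higher and Muc1 was lower in Set 1 in all 3 comparisons, Lcn2 was lower against Sets 2 and 3, and Reg1 was lower against Set 4. Hepatocyte markers were higher in Set 1 too, with 2, 1 and 3 of 4 tested genes called against Sets 2, 3 and 4 and none lower, and their part was not tested. Between Sets 2 and 3, none of the 10 genes passed in edgeR (3.93% of genes called), although 5 had an unadjusted p under 0.05. In limma-voom none passed either, and DESeq2 called Lgals2. Lgals2 passed without Set 1 organoid 1 or Set 2 organoid 3, 10 or 11, at 0.95 to 1.03 higher in Set 2. None passed between Sets 2 and 4 in edgeR, limma-voom or DESeq2 (12.4% of genes called), again with 5 at an unadjusted p under 0.05. Tff3 passed there without Set 1 organoid 2 (0.65, adjusted p = 0.046) or Set 4 organoid 15 (0.78, adjusted p = 0.037). Between Sets 3 and 4, Lcn2 was higher and Lgals4 and Reg1 were lower in Set 3 (11.6% of genes called), and Muc1 passed without Set 4 organoid 15 (0.71, adjusted p = 0.028).

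**Figure D3:**
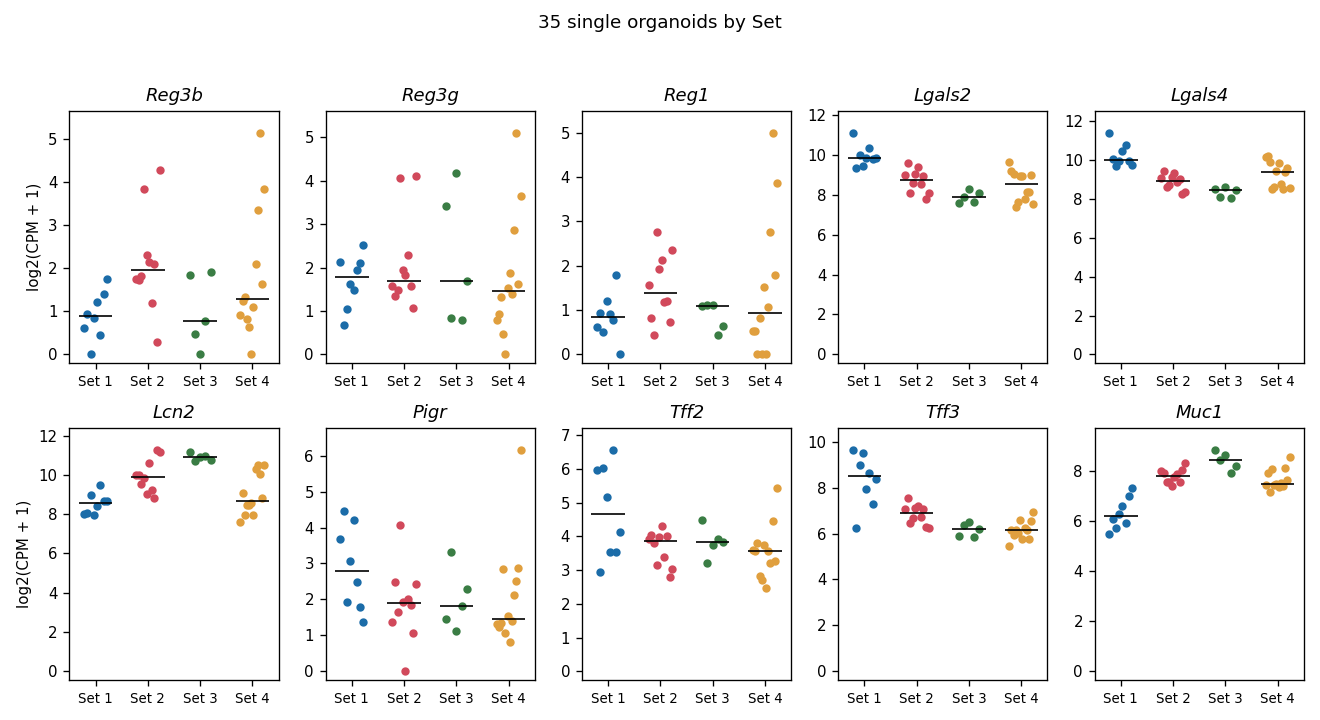
Levels of the 10 genes in 35 single organoids of Sets 1 to 4, on a log2(CPM + 1) axis. Points are organoids in the order of their number and bars are medians of the plotted values. In Set 1, Lgals2, Lgals4 and Tff3 lie higher and Muc1 lower than in the other Sets, and the highest points for the Reg genes fall in Sets 2, 3 and 4.

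Reg3b, an intestinal antimicrobial lectin, was measured at 147, 4.77 and 5.63 CPM in domes 1, 2 and 3, and at 1.43, 2.61 and 8.44 CPM in suspension cultures 1, 2 and 3. Dome 1 alone was high, with a 95% exact binomial interval of 141 to 154 CPM for counting error, and the other domes overlapped with suspension. The fitted log2 fold change was 3.98 (SE 1.12, adjusted p = 0.024). With the pools paired as a replicate block it was 2.81 (adjusted p = 0.052), and without dome 1 it was 0.54 (adjusted p = 0.61). The call was also lost without suspension 1 (3.65, adjusted p = 0.085), suspension 2 (3.78, adjusted p = 0.079) or suspension 3 (5.11, adjusted p = 0.051) and in limma-voom (3.30, adjusted p = 0.090).

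In the bulk cultures, Reg3b was at 2.81, 1.70 and 4.52 CPM at passage 4 and at 5.18, 158 and 25.6 CPM at passage 11 in Sets 1, 3 and 4. The passages did not overlap, but the ratio within a mouse was 1.84 in Set 1, 5.66 in Set 4 and 93.1 in Set 3. The technical runs of Set 3 at passage 11 gave 165 and 152 CPM, so the high value was present in both. The fitted difference was 4.39 (SE 1.02), and 1.85 (SE 0.65) without both cultures of Set 3.

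In the single organoids, Reg3b was low in most. In Set 1 it ran from 0 to 2.37 CPM with a median of 0.85, in Set 2 from 0.22 to 18.3 with a median of 2.9, in Set 3 from 0 to 2.78 with a median of 0.72, and in Set 4 from 0 to 34.1 with a median of 1.44. All Sets overlapped. The organoids of Set 1, at passage 11, held the lowest mean of the 4 Sets, 0.99 ± 0.76 CPM (SD, n = 8), and the bulk culture of the same Set at passage 11 held 5.18 CPM. The tables were made separately, from total RNA of bulk cultures and mRNA of single organoids according to the study's methods, so these levels are set side by side without a test.

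Reg3g, the sister gene of Reg3b in the intestinal defence, followed the same libraries. It was at 36.3, 1.06 and 7.88 CPM in domes and at 1.43, 0.78 and 6.87 CPM in suspension, with overlapping groups. The log2 fold change was 2.67 (SE 0.85, adjusted p = 0.039) and was 0.63 (adjusted p = 0.63) without dome 1. It also missed the threshold without suspension 1 (2.39, adjusted p = 0.12) or suspension 2 (2.31, adjusted p = 0.11), in limma-voom (adjusted p = 0.077) and in DESeq2 (adjusted p = 0.13). At passage 4 it was at 0.51, 1.13 and 6.15 CPM in Sets 1, 3 and 4 and at passage 11 at 0.83, 29.8 and 6.06 CPM. The passages overlapped, and the ratio was 26.3 in Set 3, 1.62 in Set 1 and 0.99 in Set 4.

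Reg1, which encodes a regenerating protein of the pancreas and regenerating mucosa, did not pass between culture methods. Domes held 7.45, 1.06 and 0 CPM and suspension cultures 1.91, 0 and 1.49 CPM, where a count of 0 allows up to 1.69 CPM in dome 3 and 0.78 CPM in suspension 2. Dome 1 was highest and the other domes overlapped with suspension. The log2 fold change of 2.15 (SE 0.87) had an adjusted p = 0.087, and without dome 3 it was 2.54 and passed (adjusted p = 0.031). Without dome 1 it was -0.72 (adjusted p = 0.74). Of the 13 acinar cell genes, 2 could be tested, Cela1 and Bhlha15. Both were higher in domes, beside 29.8% of all genes called in either direction. That list summed to 17.4 to 28.1 CPM in domes and 6.45 to 9.64 CPM in suspension, with 8 and 9 of its genes at 0, and its part in the Reg values was not tested. At passage 4 Reg1 had no count in Sets 1 and 3, which allows up to 0.77 and 0.57 CPM, and 2.35 CPM in Set 4. At passage 11 it was at 0.83, 20.5 and 8.07 CPM, again highest in Set 3.

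The 3 Reg genes were high in the same few single organoids. Set 4 organoid 13 held the highest value of each, with 34.1 CPM of Reg3b (interval 30.1 to 38.6), 33.2 of Reg3g (29.2 to 37.6) and 30.9 of Reg1 (27.0 to 35.2). The organoids ranked 1 to 5 by Reg3b were also those ranked 1 to 5 by Reg1, namely organoids 12, 13 and 15 of Set 4 and organoids 4 and 11 of Set 2, and 4 of them were among the 5 highest for Reg3g. The remaining 30 organoids held 0 to 3.95 CPM of Reg3b with a median of 1.31. Reg3g broke the pattern in Set 3, where organoid 4 had 17.0 CPM of Reg3g and no Reg3b count, which allows up to 1.76 CPM.

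Across the 35 organoids, after Set means were removed, Pearson's r of log2 CPM was 0.70 for Reg3g and Reg1, 0.67 for Reg3b and Reg3g, and 0.66 for Reg3b and Reg1. In Set 4 these were 0.84, 0.87 and 0.82, and in Set 2 0.78, 0.85 and 0.76. In Set 3, with 5 organoids, Reg3b had r = -0.05 with Reg3g and -0.24 with Reg1, and in Set 1 Reg3g and Reg1 had r = -0.07. The points share libraries and many rest on few counts, and 9 of the values of the 10 genes in single organoids were counts of 0, which allow up to 0.65 to 2.83 CPM. The r with the log2 library total was 0.08 for Reg3b, 0.22 for Reg3g and 0.21 for Reg1, and among the 10 genes it was highest for Pigr (0.39) and Tff2 (0.41).

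Between Sets, Reg1 was lower in Set 1 than in Set 4 with a log2 fold change of -2.91 (SE 0.75, adjusted p = 0.0078). Reg1 ran from 0 to 2.47 CPM in Set 1 and from 0 to 30.9 CPM in Set 4, so the Sets overlapped. Without Set 4 organoid 13 the difference was -1.85 (adjusted p = 0.062). It also missed the threshold in limma-voom (-1.22, adjusted p = 0.29) and with counts thinned to the smallest total (-1.76, adjusted p = 0.15). Reg1 was also lower in Set 3 than in Set 4, with a log2 fold change of -2.84 (SE 0.95, adjusted p = 0.043), and this call too was lost without organoid 13, at -1.79 (adjusted p = 0.16). It was also lost without Set 4 organoid 15 (-2.62, adjusted p = 0.064), without Set 1 organoid 4 (-2.84, adjusted p = 0.051), and without each Set 3 organoid in turn (-3.03 to -2.63). Further losses came in limma-voom (-1.03, adjusted p = 0.50), with thinned counts (-2.72, adjusted p = 0.10) and with all 42 organoids (-2.47, adjusted p = 0.076). Reg3g did not differ past the threshold in any of the 6 comparisons of Sets, with adjusted p from 0.16 to 0.96.

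Lgals4, the enterocyte galectin, was higher in domes in every pool. It was at 4539, 2649 and 3513 CPM in domes and at 1489, 794 and 813 CPM in suspension. Every dome lay above every suspension culture, and the ratio within a pool was 3.05, 3.34 and 4.32. The log2 fold change was 2.17 (SE 0.33, adjusted p = 0.0022) and stayed called in all 13 alternative settings. Lgals2, which encodes a small galectin of the digestive epithelium, was at 2837, 845 and 2345 CPM in domes and at 882, 301 and 969 CPM in suspension. Dome 2 overlapped with suspension cultures 1 and 3, yet within each pool the dome was higher, by a ratio of 3.22, 2.81 and 2.42. Its log2 fold change was 1.84 (SE 0.46, adjusted p = 0.015), also called in all 13 alternatives.

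Both galectins were higher at passage 11 in all 3 Sets. Lgals2 was at 135, 104 and 95.4 CPM at passage 4 and at 1230, 993 and 963 CPM at passage 11 in Sets 1, 3 and 4. These are ratios of 9.11, 9.57 and 10.1, and the fitted difference was 3.27 (SE 0.21). Lgals4 was at 1142, 790 and 1240 CPM at passage 4 and at 3832, 4386 and 4009 CPM at passage 11, with ratios of 3.36, 5.55 and 3.23 and a fitted difference of 1.95 (SE 0.18). The passages did not overlap for either gene.

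In the single organoids, Lgals2 ran from 640 to 2168 CPM in Set 1 with a median of 896, from 219 to 768 in Set 2 with a median of 433, from 188 to 309 in Set 3 with a median of 234, and from 166 to 781 in Set 4 with a median of 383. Set 1 lay above Set 3 without overlap and its lower end overlapped with Sets 2 and 4. Lgals4 ran from 827 to 2718 CPM in Set 1, from 305 to 700 in Set 2, from 262 to 393 in Set 3 and from 360 to 1210 in Set 4. Every Set 1 organoid was above all organoids of Sets 2 and 3. The log2 fold change of Lgals4 in Set 1 was 1.52 (SE 0.25, adjusted p = 5.47e-05) against Set 2, 2.14 (SE 0.33, adjusted p = 1.62e-05) against Set 3 and 0.98 (SE 0.24, adjusted p = 0.0053) against Set 4. Lgals4 was lower in Set 3 than in Set 4, at -1.17 (SE 0.30, adjusted p = 0.0085), although the Sets overlapped, and this was -0.77 (adjusted p = 0.096) when the 7 organoids that the study left out were kept.

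The galectins were the most closely matched pair of the 10 genes across organoids. With Set means removed, r of Lgals2 and Lgals4 was 0.90, and within Sets it was 0.86, 0.99, 0.44 and 0.93 for Sets 1 to 4. Of 6135 other genes at an average of at least 4 on the log2 CPM scale, Lgals4 was the one most like Lgals2, followed by Calml4 (r = 0.88), Habp2 (0.83), Anxa13 (0.81) and Atoh8 (0.81). Reg3b and Lgals2, both chosen for passage 11, had r = -0.14.

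**Figure D4:**
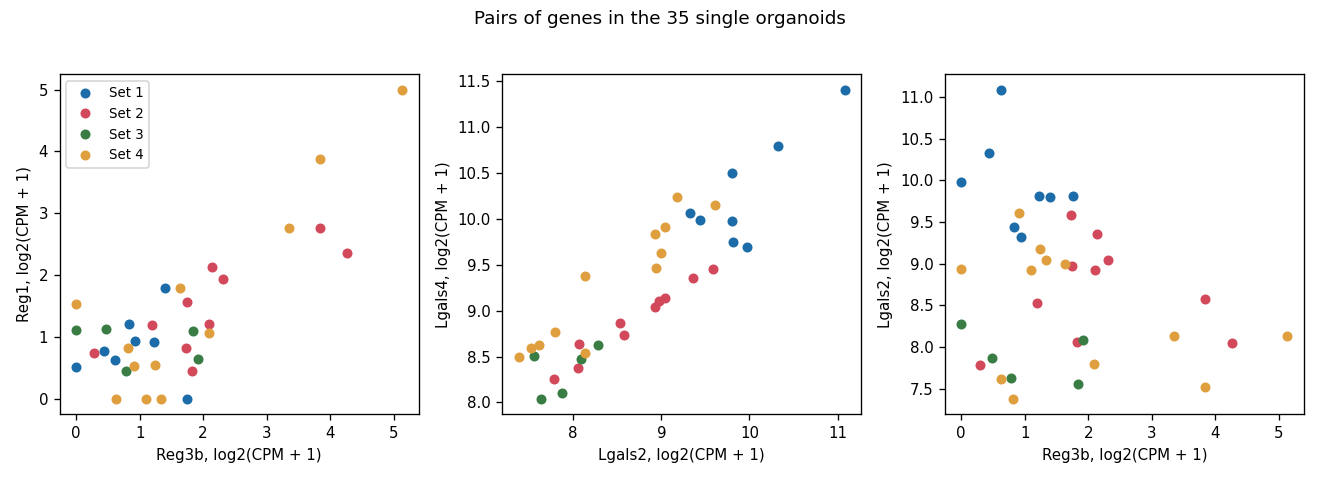
Each point is 1 of 35 single organoids, coloured by Set, and both axes are log2(CPM + 1). Reg3b and Reg1 (left) are high together in a few organoids of Sets 2 and 4, Lgals2 and Lgals4 (middle) are high in the same organoids, with an r of 0.90 after Set means were removed, and Reg3b and Lgals2 (right) have an r of -0.14.

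Lcn2, encoding the siderophore-binding lipocalin, did not pass between culture methods. Domes held 136, 332 and 335 CPM and suspension cultures 160, 162 and 273 CPM. Dome 1 was lower than every suspension culture and the other domes were higher, and the log2 fold change of 0.85 (SE 0.36) had an adjusted p = 0.10. Without dome 1 it was 1.19 and passed (adjusted p = 0.011). With passage, Lcn2 was at 2523, 4284 and 3170 CPM at passage 4 and at 503, 1415 and 427 CPM at passage 11 in Sets 1, 3 and 4. All passage 11 cultures were below all passage 4 cultures, at 0.20, 0.33 and 0.13 of the earlier level, and the fitted difference was -2.09 (SE 0.40).

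In the single organoids, Lcn2 ran from 249 to 712 CPM in Set 1, from 454 to 2488 in Set 2, from 1692 to 2299 in Set 3 and from 195 to 1474 in Set 4. Set 3 was above Sets 1 and 4 without overlap, and Set 1 was low with Set 4. The log2 fold change in Set 1 was -1.52 (SE 0.39, adjusted p = 0.0073) against Set 2 and -2.20 (SE 0.45, adjusted p = 6.98e-04) against Set 3, while -0.80 against Set 4 did not pass (adjusted p = 0.16). Set 3 was higher than Set 4 by 1.40 (SE 0.40, adjusted p = 0.017). The genes most like Lcn2 across organoids, among 6135 compared, were Slpi (r = 0.82) and Ltf (0.81), which encode a protease inhibitor and lactoferrin of secretions, then Tmem176a (0.80), Tmem176b (0.78) and 1110008P14Rik (0.77).

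Lcn2 is also a gene of neutrophils. Of the 14 neutrophil and macrophage markers, 3 could be tested between culture methods. Cd68 and S100a9 were higher in domes, beside 29.8% of all genes called in either direction. That list summed to 10.8 to 68.9 CPM in domes and 4.54 to 11.2 CPM in suspension, with 7 and 8 of its 14 genes at 0. Itgam, Elane, Ngp, Cxcr2, Retnlg and Lyz2 were at 0 in both. At passage 4 the list summed to 8.86 to 22.2 CPM and at passage 11 to 4.97 to 6.06 CPM, beside Lcn2 levels of 427 CPM or more, and Elane and Ngp were at 0 at both passages. In single organoids the list summed to 2.15 to 4.73 CPM in Set 1, 3.25 to 15.04 in Set 2, 6.15 to 12.1 in Set 3 and 1.65 to 7.64 in Set 4, and S100a9 and Csf1r were lower in Set 1 than in Sets 2 and 3, as Lcn2 was. The part of these cells in the Lcn2 values was not tested.

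Pigr, the transporter of immunoglobulin A, was higher in domes. It was at 31.6, 12.7 and 24.8 CPM in domes and at 5.26, 2.35 and 3.39 CPM in suspension, with no overlap. Ratios within a pool were 6.02, 5.43 and 7.31, and the log2 fold change of 3.08 (SE 0.35, adjusted p = 8.57e-04) was called in all 13 alternatives. With passage, Pigr was at 14.3, 29.8 and 29.6 CPM at passage 4 and at 6.22, 25.7 and 3.36 CPM at passage 11 in Sets 1, 3 and 4. It was lower in all 3 mice, but Set 3 overlapped with passage 4, and the fitted difference was -0.91. In single organoids Pigr stayed between 0 and 21.2 CPM, apart from Set 4 organoid 15 at 70.8 CPM (interval 64.2 to 77.9), and none of the 6 comparisons of Sets passed. Set 1 against Set 4 was at -0.26 (SE 0.60, adjusted p = 0.83), and without organoid 15 it was 1.55 (SE 0.45, adjusted p = 0.019), higher in Set 1. Set 2 against Set 4 was at -1.47, and at -2.13 (adjusted p = 0.041) without Set 2 organoid 4.

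Tff3, the trefoil factor of goblet cells, rose in domes. Domes held 669, 1768 and 3052 CPM and suspension cultures 366, 111 and 198 CPM, without overlap. The ratio within a pool was 1.83 in pool 1 and 15.9 and 15.4 in pools 2 and 3, and the log2 fold change was 3.39 (SE 0.56, adjusted p = 0.0032). Tff2, the gastric trefoil factor, split the domes, with 9.48 CPM in dome 1 and 207 and 310 CPM in domes 2 and 3, beside 9.80, 7.56 and 17.5 CPM in suspension. Dome 1 was no higher than suspension, and the log2 fold change was 4.24 (SE 0.94, adjusted p = 0.0096), which was lost in limma-voom (3.07, adjusted p = 0.073). The pools differed in their pattern. Among the domes, that of pool 1 was highest for the 3 Reg genes, Lgals2, Lgals4 and Pigr. The same dome was lowest for Tff2, Tff3, Lcn2 and Muc1. Dome 1 was also the deepest library, at 14761853 counts against 1885591 and 1776490 in domes 2 and 3.

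With passage, Tff3 was at 33.5, 51.2 and 21.5 CPM at passage 4 and at 165, 86.5 and 48.4 CPM at passage 11 in Sets 1, 3 and 4. It was higher in each mouse, by ratios of 4.93, 1.69 and 2.25, while the passages overlapped, and the fitted difference was 1.56 (SE 0.43). Tff2 went from 23.5, 57.8 and 13.6 CPM to 10.4, 25.7 and 23.6 CPM, lower in Sets 1 and 3 and higher in Set 4.

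In single organoids Tff3 ran from 74.9 to 805 CPM in Set 1, from 74.1 to 186 in Set 2, from 57.5 to 89.7 in Set 3 and from 42.8 to 121 in Set 4. Set 1 was the most spread, and its organoids 2 and 7, at 74.9 and 157 CPM, lay within the range of Set 2. The log2 fold change in Set 1 was 1.85 (SE 0.28, adjusted p = 1.03e-05) against Set 2, 2.62 (SE 0.38, adjusted p = 4.00e-06) against Set 3 and 2.50 (SE 0.27, adjusted p = 1.19e-08) against Set 4. Tff2 in Set 1, from 6.67 to 93.7 CPM, was higher by 1.86 (SE 0.42, adjusted p = 0.0026), 1.61 (SE 0.52, adjusted p = 0.037) and 1.53 (SE 0.39, adjusted p = 0.0066), and the call against Set 3 was lost in limma-voom (adjusted p = 0.16), without Set 1 organoid 1, 3 or 6 and without Set 3 organoid 3, 4, 5 or 6, where it lay between 1.20 and 1.61 (adjusted p from 0.065 to 0.099). The neighbours Tff2 and Tff3 had r = 0.73 across organoids with Set means removed, 0.85 within Sets 1 and 2, 0.57 in Set 4 and -0.59 among the 5 organoids of Set 3.

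Muc1, the membrane mucin, did not pass between culture methods, at 4.95, 47.2 and 28.1 CPM in domes and 9.32, 10.2 and 43.1 CPM in suspension (log2 fold change 0.67, SE 0.79, adjusted p = 0.55). The groups overlapped, and the sign turned without dome 2, at -0.48 (adjusted p = 0.68), and in limma-voom, at -0.16. With passage it was at 261, 458 and 596 CPM at passage 4 and at 41.2, 82.8 and 114 CPM at passage 11 in Sets 1, 3 and 4, which are ratios of 0.16, 0.18 and 0.19. The passages did not overlap, and the fitted difference was -2.52 (SE 0.34). In single organoids Muc1 ran from 44.2 to 158 CPM in Set 1, 167 to 321 in Set 2, 242 to 459 in Set 3 and 141 to 371 in Set 4. Set 1 was below Sets 2 and 3 without overlap and overlapped with Set 4. Its log2 fold change was -1.43 (SE 0.22, adjusted p = 1.41e-05), -2.01 (SE 0.25, adjusted p = 2.88e-07) and -1.41 (SE 0.22, adjusted p = 1.12e-05) against Sets 2, 3 and 4.

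Across the 35 organoids the highest correlations were within families. These families were the Reg genes, the galectins and the trefoil factors. Among other pairs, r was highest for Lcn2 and Reg1 (0.55), Reg1 and Pigr (0.52), and Lcn2 and Muc1 (0.49). Within Sets 1 to 4, Lcn2 had r of 0.05, 0.82, 0.51 and 0.57 with Muc1. With Reg1 it had -0.14, 0.15, 0.02 and 0.80, so only Set 4 was high. The galectins had r between -0.28 and 0.11 with Lcn2, Muc1, Pigr and the Reg genes, and 0.26 to 0.39 with the trefoil factors. Within Sets 1 to 4, Lgals2 and Tff3 had r of 0.64, 0.98, 0.84 and -0.43. For Lgals4 and Tff2 these were 0.54, 0.90, 0.61 and 0.06. All of these are correlations among libraries that share depth and handling. The genes most like Reg3b were Timm9 (0.60), Ltf (0.57), Pfdn4 (0.55), Rps23-ps1 (0.53) and Lsm7 (0.53), which is weak for sparse counts.

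**Figure D5:**
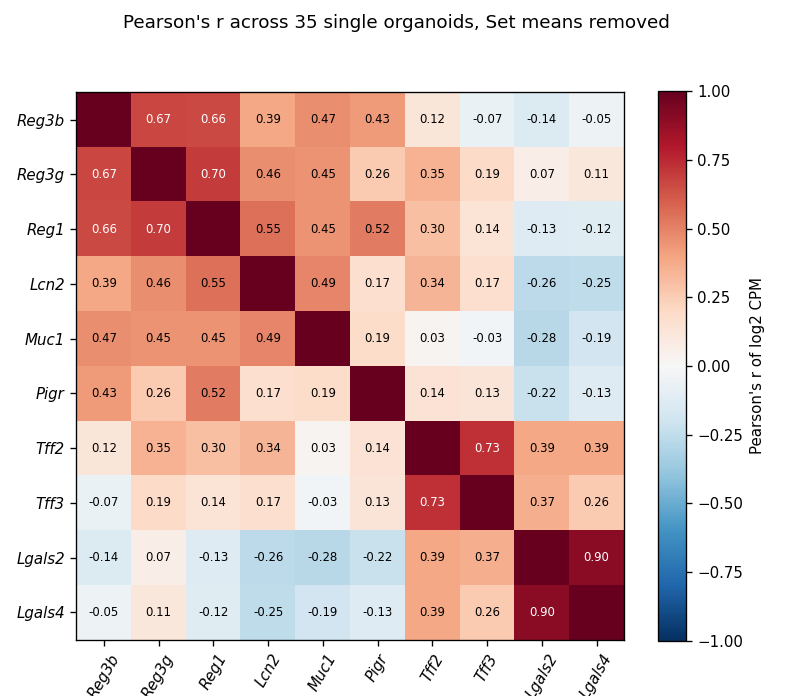
Pearson's r of log2 CPM between the 10 genes across 35 single organoids, after the mean of each Set was removed. Red is positive and blue negative. The Reg genes, with r of 0.66 to 0.70, the trefoil factors, at 0.73, and the galectins, at 0.90, form patches. Between galectins and trefoil factors r is 0.26 to 0.39.

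Other genes of these families and pathways were counted in the same comparisons, and their counts stand beside 29.8% of all genes called between culture methods. Between culture methods, 3 of 6 other galectins tested were higher in domes and 1 was lower. Lgals3, a galectin of many epithelia, was higher by 1.42 (SE 0.32, adjusted p = 0.0099) and Lgals9 by 0.95 (SE 0.26, adjusted p = 0.023), whereas Lgals1, a galectin known from mesenchyme, was lower, at -2.71 (SE 0.43, adjusted p = 0.0028). All 3 other mucins and trefoil factors tested were higher, with Tff1, another gastric trefoil factor, at 6.43 (SE 1.47, adjusted p = 0.010) although the domes ran from 1.63 to 566 CPM, and Muc13 at 4.95 (SE 0.56, adjusted p = 8.48e-04). Reg4, the only other Reg gene that could be tested, did not pass, at 0.05.

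Of 10 tested antimicrobial and acute phase genes outside the 10, 5 were higher in domes and none was lower. Saa1 and Saa3, which encode acute phase serum amyloid proteins, were higher by 5.27 (SE 0.89, adjusted p = 0.0034) and 4.72 (SE 0.87, adjusted p = 0.0046), and Dmbt1, encoding a mucosal scavenger protein, by 2.95 (SE 0.26, adjusted p = 5.07e-04). Of 10 goblet cell genes, 4 were higher and none was lower, a share that is also not far from that of all genes, with Bcas1 at 3.88 (SE 0.51), Fcgbp at 2.37 (SE 0.33) and Klf4 at 1.75 (SE 0.31). Of 16 signalling genes of the STAT3, interleukin-22, interleukin-17 and NF-kB pathways, 4 were higher and 2 lower, a share near that of all genes. Socs3, a STAT3 target, was higher by 1.51 (SE 0.41, adjusted p = 0.021), Il17rc by 1.04 (SE 0.20, adjusted p = 0.0056), and Il6st, encoding the shared receptor gp130, was lower, at -1.07 (SE 0.31, adjusted p = 0.028). Markers of intestinal and gastric epithelium, of which 9 of 12 tested were higher and 1 lower, summed to 1706 to 2445 CPM in domes and 683 to 793 CPM in suspension. Alpi, Lypd8 and Fabp2, all genes of enterocytes, were higher by 5.30, 4.23 and 3.87. For Alpi the domes were uneven, from 1.59 to 23.9 CPM with a median of 1.69, beside 0.17 to 0.78 CPM in suspension.

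With passage the neighbours of these genes are again a description, beside 20.3% of all genes called. Of 9 tested antimicrobial and acute phase genes, 6 were lower at passage 11 and none was higher, with Duox2 at -3.29, Duoxa2 at -2.66 and Slpi at -2.61, the same direction as Lcn2. Among 18 signalling genes 6 were lower and 1 higher, with the cytokine receptor genes Osmr at -3.17 and Il6st at -1.53 and Nfkbiz, an NF-kB cofactor, at -1.44. Of 7 other galectins, 3 were lower and none was higher, namely Lgals9 at -1.01, Lgals8 at -0.80 and Lgals3bp at -0.76. Reg4, at 1.75, and Muc13, at 3.06, were higher. Of 10 tested markers of intestinal and gastric epithelium, 3 were higher and 2 lower. Cdx2, which encodes the homeobox factor of the intestine, was higher by 2.80 and Fabp2 by 3.74, while Anxa10, a gene of gastric epithelium, was lower, at -2.998. Of 9 tested goblet cell genes, 1 was higher and 3 were lower.

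Some of these genes also differed between Set 1 and the other Sets of single organoids. Muc13 was higher in Set 1 than in Sets 2, 3 and 4 by 3.05, 3.09 and 3.53 (adjusted p = 1.14e-04, 0.0022 and 5.25e-06), and Gcnt3, a mucin core enzyme, by 2.24, 2.79 and 2.60 (adjusted p = 4.55e-07, 1.73e-06 and 7.02e-09). Krt20, a keratin of surface epithelium in the gut, was higher by 2.38, 3.28 and 3.49 (adjusted p = 7.11e-10, 6.54e-10 and 1.86e-14). Slpi was lower, at -1.93, -1.28 and -1.21 (adjusted p = 1.04e-04, 0.024 and 0.011) and Ltf at -1.19, -1.85 and -1.11 (adjusted p = 0.012, 6.21e-04 and 0.016). Muc20 was lower as well, at -1.54, -1.94 and -2.04 (adjusted p = 0.014, 0.0045 and 3.91e-04). The whole antimicrobial and acute phase list had 4, 6 and 2 of 9 genes lower in Set 1 against Sets 2, 3 and 4. None was higher. Of all genes, 14.3%, 9.43% and 20% were called in either direction, so the count against Set 4 was near the background. Beside the same shares, 2 of 7 tested goblet cell genes were higher in each comparison, and 0, 1 and 1 were lower. Of 3 other mucins and trefoil factors tested, 1, 1 and 2 were higher, with 1 lower each time. Of 9 tested markers of intestinal and gastric epithelium, 5, 5 and 7 were higher and none was lower.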

How the data were processed

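The authors deposited 3 tables of gene counts, not normalized. RNA was extracted as total RNA from bulk cultures and as mRNA from single organoids according to the study's methods, while the labels give the mRNA extraction for all samples. Barcoded libraries were processed with zUMIs, mapped to mm10 with Ensembl 93 genes and down-sampled where library sizes varied. The submitters' processing notes name STAR, featureCounts, SAMtools 1.9, R 3.6.3, edgeR 3.28.1 and limma 3.42.2. The deposited counts were used as given, and the 2 technical runs of each passage culture were summed. Genes passing filterByExpr (minimum count 3) were fitted with edgeR 4.0.16 (TMM, quasi-likelihood test, R 4.3.3), with Benjamini-Hochberg adjustment over all tested genes (for Sets, over the 6 comparisons together) and a threshold of 0.05. Alternatives were limma-voom (limma 3.58.1), DESeq2 1.42.0, other scaling, no filter, a replicate block, thinned counts, all 42 organoids, and leaving out libraries. Leaving out organoids of Sets 1, 2 and 4, or both cultures of a Set, was chosen after seeing the data. The fits were tested on simulated data.

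Intervals are exact Clopper-Pearson at 95%, a count of 0 allows 3 counts, and both cover counting error only. Organoids of a Set were taken from different wells of cultures of the same mouse, so p-values for organoids of 1 Set measure the spread between organoids of 1 mouse. The same mouse pools were used for dome and suspension, and same-numbered cultures correlated at 0.15, 0.16 and 0.19 in their deviations from group means. The passage cultures pair by mouse (0.11, 0.03 and 0.11). The study's methods give 1 mouse per Set, which was used here, while the labels of the passage samples speak of pools. The members and gene lists were chosen with earlier results of these data known. All 10 members are named, with, from every other list, up to 3 called genes of largest change at an average log2 CPM of at least 1, and the 5 genes with the highest r with Reg3b, Lgals2 and Lcn2. Marker genes are named beside the results they move with.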

Additional observations from a re-analysis of the deposited data

How the results depend on the processing

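Of 2947 values of the 10 genes under the alternatives, 2848 kept their direction and side of the threshold or stayed uncalled, 64 lost a call, 27 gained one and 8 reversed, the contrasts that chose the members included. Of the 10 genes, 4 were called between culture methods in limma-voom against 7, and leaving out 1 library gave 5 to 8. Between passages, where the counts only describe genes chosen on them, leaving out 1 culture gave 4 to 7 against 7, the lowest without Set 1 at passage 4. Leaving out 1 organoid gave, of the 8 genes other than Reg3b and Lgals2, 5 called for Sets 1 and 2, 4 to 5 for Sets 1 and 3 and 4 to 6 for Sets 1 and 4, each against 5. Of all 10 genes it gave 0 to 1 for Sets 2 and 3, 0 to 1 for Sets 2 and 4, and 2 to 3 for Sets 3 and 4. Between Sets 2 and 3 the count of 0 became 1 with no filter and 1 in DESeq2, and with all 42 organoids Sets 3 and 4 had 1 called against 3. Without a filter the median of all genes shifted by -0.22 between culture methods and -0.10 between passages. With a replicate block the pairing by pool took the call of Reg3b between culture methods (2.81), and pairing by mouse changed no call between passages. The single organoids share only a number (r of -0.37 to 0.41 for 35 pairs, and 14 of 70 correlated best with their own number), and the replicate block there gave 3 calls for Sets 2 and 3 and 4 for Sets 2 and 4. It also reversed Reg1 (0.65) and Pigr (2.09) for Sets 1 and 4, Reg3b (2.04), Reg3g (1.88) and Reg1 (1.91) for Sets 2 and 4, and Reg3g (2.15) and Reg1 (0.69) for Sets 3 and 4. Leaving out 1 organoid moved Pigr for Sets 1 and 4 between -0.53 and 1.55, the highest without Set 4 organoid 15. The cause was not tested. Values near 1 CPM rest on few counts, and differences there may not be detectable at this depth.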
